A study of Caenorhabditis elegans with 12 samples.

Results

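The transcriptomes of strains that carry the transgene *vtIs1* were compared with those of strains that carry the transgene *wIs51*, in whole *C. elegans* larvae at the L3 stage, 31 hr posthatching. All 12 libraries of the series entered the comparison, 6 from *vtIs1* strains and 6 from *wIs51* strains. JR667 is wild type for *lin-22*, carries *wIs51* on chromosome V and is listed with the allele *unc-119(e2498::Tc1)* in its background. The *lin-22(icb38)* strain, MBA81, also carries *wIs51* and has a deletion placed 2371 bp before the start codon of *lin-22*. By the study's description the deletion also takes away part of the neighbouring gene *vrp-1*. Sequence of the gene *mca-3* is inserted in its place. The *lin-22(ot267)* strain, OH4265, carries *vtIs1* on chromosome V and a stop codon in the coding sequence of *lin-22*. The *lin-22(ot269)* strain, OH4271, carries *vtIs1* and a C to T change 4940 bp upstream of the ATG. Each strain gave 3 libraries, and the labels do not say whether these came from separate cultures. For the pairs of strains below and their interaction, p-values therefore measure the spread between libraries of a strain. The marker test was fitted without a separate level for each strain. Its p-values therefore also take in how far the pairs of strains disagreed. The question was how far strains with different markers and histories differ across genes, with the upstream mutation that MBA81 and OH4271 carry fitted as a second factor. Each marker is held by 2 strains only, and each *vtIs1* strain also differs from its *wIs51* partner in its *lin-22* allele. Marker, strain background and allele therefore cannot be told apart in any value below.

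The transgene *wIs51* drives GFP from the *scm* reporter, which labels the seam cells, the stem-like cells of the lateral epidermis, and holds a wild-type copy of *unc-119* as the marker of transformation. *unc-119* encodes a chaperone of lipid-modified proteins that neurons need, and its loss leaves animals uncoordinated. Transgenes of *C. elegans* usually hold many copies of the injected DNA in an array, so a gene placed in one can be read from the array as well as from its own locus, and counts per transcript do not separate these sources. *vtIs1* is a reporter of the dopamine transporter gene *dat-1* that also carries a dominant form of the cuticle collagen gene *rol-6*, which makes animals roll. *lin-22* encodes a bHLH repressor related to Hairy and Enhancer of split, which acts in the patterning of the seam. Strains built from separate mutageneses and crosses can also differ at other loci, which was not examined here.

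The *wIs51* libraries held 57388974 to 78920246 counts each (median 75246785) and the *vtIs1* libraries 56479069 to 74971550 (median 65731847). In a principal component analysis of 15336 entries with high counts, the first component took 31.0% of the variance and placed all *wIs51* libraries (scores of -29.9 to -10.2) below all *vtIs1* libraries (-0.5 to 31.6). JR667 replicate 1 stood apart from the other JR667 libraries on the third component, with a score of 29.8 against 3.2 and 3.9. By a chi-square of counts between replicates of a strain, *lin-22(icb38)* replicate 1 stood apart as well. It gave 124.3 and 125.1 per entry against the other libraries of its strain, which gave 38.17 against each other. For JR667 replicate 1 the values were 133 and 128.1, against 37.15. They ran from 29.33 to 71.58 in *lin-22(ot267)* and from 13.88 to 20.87 in *lin-22(ot269)*. The part of JR667 replicate 1 in a result is given where it moved one.

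Of 19696 transcripts and repeat families tested, 3742 (19%) differed between the markers at an adjusted p of 0.1 in edgeR's quasi-likelihood test, 1897 higher (9.63%) and 1845 lower (9.37%) in the *vtIs1* strains. Most differences were small. The median absolute difference among these calls was 0.42 on the log2 scale, and 267 entries (1.36%) were called at least 2-fold higher and 199 (1.01%) at least 2-fold lower. All 6 *vtIs1* libraries lay above all 6 *wIs51* libraries for 418 entries (2.12%) and below them for 458 (2.33%). With library totals as the only scaling the median of all genes moved from 0.01 to 0.11, and the calls became 3731 higher and 1009 lower, so that 78.7% of calls were higher against 50.7%. Differences below are therefore relative to the median of ratios, and those within about 0.1 of 0 have no sign that holds under both scalings. The upstream *lin-22* mutation as the second factor had 3353 calls (17%).

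The marker difference was then taken in each pair of strains with the same upstream status, and the pairs share no library. *lin-22(ot267)* minus JR667 gave 1713 calls (8.7%), and *lin-22(ot269)* minus *lin-22(icb38)* gave 3602 (18.3%). In both pairs 259 entries were called higher (1.31%) and 328 lower (1.67%). These 587 were 34.3% of the calls of the first pair and 16.3% of those of the second, and 67 entries were called in opposite directions. Across the 19696 entries the log2 differences of the pairs had a Pearson r of 0.21 and a Spearman rho of 0.25, given as a description, since entries are not independent and share library depth. Of the 3742 marker calls, 1683 were called in the *lin-22(ot269)* pair only, 586 in the *lin-22(ot267)* pair only and 886 in neither pair, although 3700 had the same sign in both. The pairs differed from each other at 1084 entries (5.5%) in the test of the interaction, of which 334 were also marker calls.

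**Figure D1:**
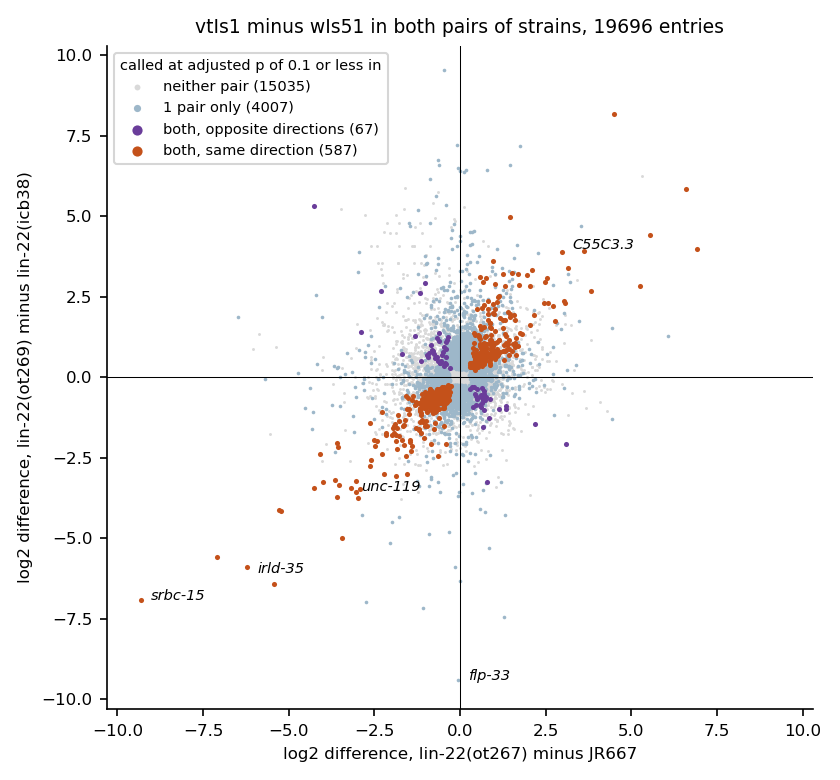
Log2 difference of every tested entry in *lin-22(ot267)* minus JR667 (x axis) and in *lin-22(ot269)* minus *lin-22(icb38)* (y axis), with 1 point per transcript or repeat family, coloured by whether the entry was called at an adjusted p of 0.1 in neither pair (15035), in 1 pair (4007), in both in opposite directions (67) or in both in the same direction (587). The entries *srbc-15* and *irld-35* lie far below 0 in both pairs, while *flp-33* differs in the *lin-22(ot269)* pair alone.

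Among the genes of the transgenes, *unc-119* (M142.1) showed the difference with the smallest p of those named here. It had 6507, 7790 and 9278 normalised counts (lowest, median and highest) in the *wIs51* libraries and 715, 755 and 964 in the *vtIs1* libraries, where normalised means divided by the size factor of the library. The groups did not overlap, and every *wIs51* library was at least several times above every *vtIs1* library. The log2 difference was -3.31 (standard error 0.1, edgeR adjusted p = 6.08e-11, 6 libraries each), with -3.19 and -3.43 in the pairs. Its neighbours on chromosome III moved the other way or not past the threshold. *cut-6*, which encodes a cuticlin-like protein, was higher by 0.64 (edgeR adjusted p = 0.0129), and *com-1* differed by 0.28 (edgeR adjusted p = 0.112).

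A pair of neighbouring genes on chromosome IV had differences of nearly the same size. *mec-17* (F57H12.7), which encodes the alpha-tubulin acetyltransferase of the touch receptor neurons, had 23835, 32424 and 42470 normalised counts in the *wIs51* libraries and 2731, 3434 and 3541 in the *vtIs1* libraries. Its log2 difference was -3.30 (standard error 0.132, edgeR adjusted p = 6.58e-10, 6 libraries each). The cuticle collagen gene *col-115* (Y42H9B.1), which lies next to it, had 31425, 34476 and 44878 against 2795, 3654 and 6035, a difference of -3.19 (standard error 0.142, edgeR adjusted p = 2.43e-09). For both genes no *vtIs1* library came near a *wIs51* library. The genes on either side did not share this. *arf-5* (F57H12.1), which encodes an ADP-ribosylation factor and lies next to *mec-17*, differed by -0.23 (edgeR adjusted p = 0.054). *unc-24* beyond it differed by 0.13 (edgeR adjusted p = 0.445), and *rig-4*, on the far side of *col-115*, by 0.04 (edgeR adjusted p = 0.851). The neighbours of both loci were chosen after their values were seen.

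The transposon entry TC1, the family to which the insertion in *unc-119(e2498::Tc1)* belongs, had 1281, 2224 and 2560 normalised counts in the *wIs51* libraries and 160, 254 and 298 in the *vtIs1* libraries. The groups did not overlap, and the log2 difference was -3.12 (standard error 0.161, edgeR adjusted p = 1.36e-08). Another Tc1 entry, TC1A, differed by 0.16 (edgeR adjusted p = 0.532). The entry named sensor_genome, whose sequence the files do not describe, had 12661, 24239 and 41989 against 3827, 4074 and 4397, a difference of -2.61 (standard error 0.181, edgeR adjusted p = 5.29e-07).

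*vtIs1* carries *rol-6* and a reporter of *dat-1*, and neither gene showed such an excess in the *vtIs1* strains. A reporter need not hold the transcribed sequence of its gene, so no excess of *dat-1* counts need follow from it. *rol-6* (T01B7.7) had 37843, 44616 and 68498 normalised counts in the *vtIs1* libraries and 36207, 52666 and 76451 in the *wIs51* libraries, which overlapped. The log2 difference was -0.09 (standard error 0.19, edgeR adjusted p = 0.815), with 0.45 in the *lin-22(ot267)* pair and -0.63 in the *lin-22(ot269)* pair, and the pairs differed (edgeR adjusted p of the interaction 0.0283). *dat-1* (T23G5.5) had 693, 799 and 873 against 541, 954 and 1553, a difference of -0.21 (standard error 0.198, edgeR adjusted p = 0.527). Here too the pairs went apart, with 0.46 and -0.88 (edgeR adjusted p of the interaction 0.000558), and *lin-22(icb38)* was the highest strain and JR667 the lowest. *lin-22* itself (Y54G2A.1) had medians of 230 normalised counts in the *vtIs1* libraries and 259 in the *wIs51* libraries, which overlapped, with a difference of -0.11 (standard error 0.211, edgeR adjusted p = 0.783).

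**Figure D2:**
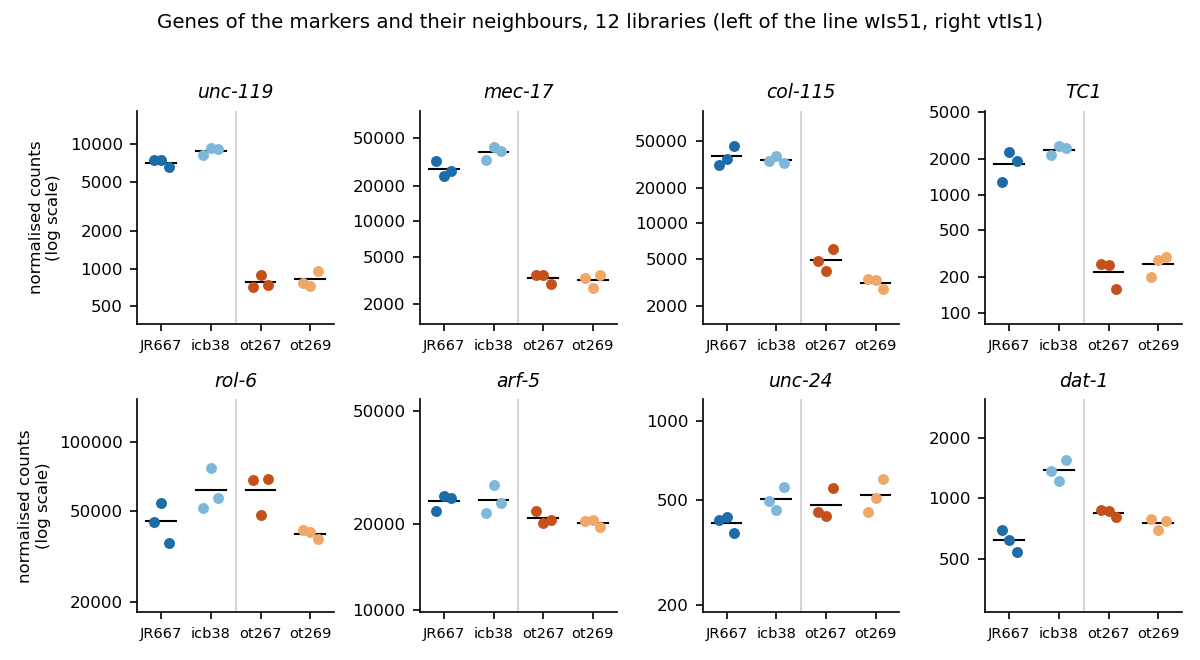
Normalised counts (log axis) of *unc-119*, *mec-17*, *col-115*, TC1, *rol-6*, *arf-5*, *unc-24* and *dat-1* in each of the 12 libraries, with 3 points per strain, a bar at the strain mean, and a line between the *wIs51* strains on the left and the *vtIs1* strains on the right. The first 4 fall in separate ranges by marker, from 6507 to 9278 against 715 to 964 for *unc-119*, while *rol-6*, *unc-24* and *dat-1* overlap.

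Calls of at least 2-fold took their highest share on chromosome V, the chromosome on which both transgenes are listed. Of 3479 tested genes on V, 89 were called at least 2-fold higher and 83 at least 2-fold lower, together 4.94%. The share was 2.94% to 3.19% on IV and II and 0.979% to 1.76% on I, III and X. Runs of at least 3 neighbouring genes that were all called in the same direction by at least 1 on the log2 scale numbered 13 and held 59 genes, and 7 of the runs were on V.

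The longest run held 9 genes, all lower in the *vtIs1* strains, from *srbc-15* to Y19D10A.16. *srbc-15* (F15E11.10), a member of a chemoreceptor family, had between 415 and 1060 counts in the *wIs51* libraries and between 0 and 9 in the *vtIs1* libraries. The fitted difference was -7.88 (standard error 0.331, edgeR adjusted p = 1.15e-09), and at counts this low its size depends on the prior count of the fit. The next gene, *irld-53*, of a nematode family with domains like those of insulin and EGF receptors, had 417, 563 and 1007 normalised counts against 11.6, 21.2 and 32.6, a difference of -4.70 (standard error 0.255, edgeR adjusted p = 2.22e-08). *clec-209*, which encodes a C-type lectin, had 7726, 16924 and 32112 against 1946, 2122 and 2448, a difference of -2.86, and its pairs differed (-3.57 and -2.15, edgeR adjusted p of the interaction 0.00157). The other 6 genes, Y19D10A.8, Y19D10A.11, *mct-1*, Y19D10A.5, Y19D10A.4 and Y19D10A.16, differed by between -1.95 (Y19D10A.4) and -1.27 (*mct-1*, a monocarboxylate transporter gene).

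A few genes further along V lay another run of 8 genes that were also lower. It began with *irld-35*, at 534, 692 and 1162 normalised counts in the *wIs51* libraries and 5.79, 10.7 and 18 in the *vtIs1* libraries, a difference of -6.06 (standard error 0.239, edgeR adjusted p = 6.58e-10). F56A4.2 followed with -2.82, and F56A4.10, F56A4.12, *mct-2*, C01B4.8, C01B4.7 and C01B4.6 with values between -1.92 (C01B4.8) and -1.32 (*mct-2*). Several members of these runs are near copies of each other. Over the 12 libraries *clec-209* had 0.89 to 1.12 times the counts of F56A4.2, and *mct-1* 1.14 to 1.52 times those of *mct-2*. Reads of such copies could have been split or shared between them, so that which copy was lower is uncertain for every pair. The ratio of *irld-53* to *irld-35* ranged more widely, from 0.65 to 3.67. Both were at 32.6 normalised counts or less in every *vtIs1* library, so this range does not show that they were counted apart. None of the 17 genes overlapped between the markers in any library, beside 458 of all entries (2.33%) that were lower without overlap. The runs were chosen by the marker difference in these same libraries, so this is not separate support for it.

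On the other side of *srbc-15*, beyond 3 *irld* genes that were not called, 6 neighbouring *pud* genes were higher in the *vtIs1* strains. The *pud* genes encode small proteins of unknown function that were found as raised in *daf-2* mutants. *pud-3* had 1426, 2328 and 3323 normalised counts in the *wIs51* libraries and 9048, 13232 and 23140 in the *vtIs1* libraries, a difference of 2.57 (standard error 0.239, edgeR adjusted p = 1.38e-05). *pud-4* had 793, 1356 and 2068 against 4962, 6608 and 10449, a difference of 2.30 (standard error 0.226, edgeR adjusted p = 2.21e-05). *pud-1.1*, *pud-1.2*, *pud-2.1* and *pud-2.2* were higher by 1.48, 1.47, 1.28 and 1.27. Each pair of copies had counts within 5% of each other (ratios of 0.95 to 1.03 and 0.98 to 1.03), so these are not 4 separate measurements. The rise was larger in the *lin-22(ot269)* pair than in the *lin-22(ot267)* pair, at 3.17 against 1.97 for *pud-3* (edgeR adjusted p of the interaction 0.057).

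**Figure D3:**
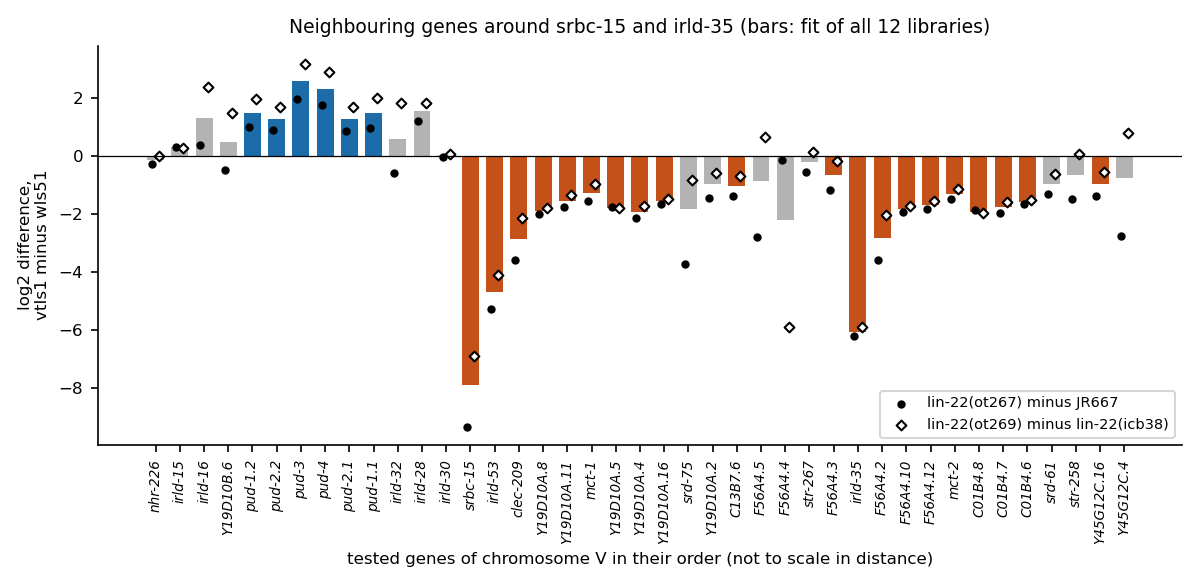
Log2 difference (*vtIs1* minus *wIs51*) of 41 neighbouring tested genes of chromosome V in their order along the chromosome, with bars from the fit of all 12 libraries (blue called higher, orange called lower, grey not called) and points for each pair of strains. The bars of the *pud* genes reach 2.57, those from *srbc-15* on fall to -7.88, and both pairs show the runs.

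Beyond these runs, the genes with the largest falls that also passed the threshold in both pairs without overlap between libraries belonged to several families. Each had to average 100 or more normalised counts in the marker group where it was higher, so genes low in the other group passed through that group alone. *dmsr-14* on V, which encodes a peptide receptor, had 73 to 128 counts in the *wIs51* libraries and 0 to 10 in the *vtIs1* libraries. The F-box genes *fbxa-192* and *fbxa-193*, both on V, differed by -3.66 and -3.30 (edgeR adjusted p = 0.000115 and 8.71e-05). F20A1.6 on V differed by -3.43 (edgeR adjusted p = 1.85e-06). *dod-21*, one of the genes downstream of the DAF-16 transcription factor, and its neighbour *cld-1* on IV had medians of 555 and 570 normalised counts in the *wIs51* libraries and 51.1 and 59.5 in the *vtIs1* libraries, differences of -3.59 and -3.39 (edgeR adjusted p = 3.24e-05 and 7.36e-05). *haf-6* on I encodes an ABC transporter that RNA interference requires. It had 3052, 3250 and 3834 normalised counts against 430, 524 and 615, a difference of -2.68 (standard error 0.0989, edgeR adjusted p = 5.31e-10), with -2.62 and -2.75 in the pairs. Of the 15 largest falls chosen in this way 9 were on V, 4 on IV, 1 on III and 1 on I. Chromosome V held 3479 of the 15687 tested genes with a position. The falls on V included *srbc-15*, *irld-53*, *clec-209*, *irld-35* and F56A4.2 of the runs above, which are neighbours and in part near copies.

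The 15 largest rises were spread over more chromosomes, with 6 on V, 4 on IV, 2 each on II and X and 1 on I. The neighbours *pud-3* and *pud-4* were among the 6 on V. C55C3.3 on IV had 14.3, 30.3 and 88.3 normalised counts in the *wIs51* libraries and 266, 418 and 622 in the *vtIs1* libraries, a difference of 3.37 (standard error 0.266, edgeR adjusted p = 2.22e-06). Its neighbours C55C3.6 (2 to 8 counts against 33 to 89), C55C3.7 (0 to 2 against 3 to 47) and C55C3.4 (2 to 8 against 4 to 28) were also called higher and made up a run of 4. The thaumatin-family genes *thn-1* and *thn-2*, which are neighbours on IV, rose by 3.27 and 2.21 (edgeR adjusted p = 0.000115 and 0.00122). For *thn-2* the rise was 1.25 in the *lin-22(ot267)* pair and 3.20 in the *lin-22(ot269)* pair (edgeR adjusted p of the interaction 0.0172). B0511.11 on I had 97.5, 130 and 210 normalised counts against 834, 991 and 1068, a difference of 2.80 (standard error 0.153, edgeR adjusted p = 2.24e-08), with no overlap.

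Among rises of genes with known products, *argk-1*, which encodes an arginine kinase, went from a median of 245 to 1516 normalised counts (2.35, standard error 0.333, edgeR adjusted p = 0.000581). *ppt-1*, which encodes a palmitoyl-protein thioesterase, rose by 2.23 (edgeR adjusted p = 0.00395), with 0.97 and 3.62 in the pairs (edgeR adjusted p of the interaction 0.00127). ZK218.5 on V rose by 3.12 (edgeR adjusted p = 0.00349), again with a larger value in the *lin-22(ot269)* pair (1.46 and 4.97, edgeR adjusted p of the interaction 0.00236). *srlf-34* on II, at medians of 1066 and 6608 normalised counts, rose by 2.67 (edgeR adjusted p = 4.85e-06). The remaining members of the 15 were C27B7.9 (2.69), *spig-20* (2.38), Y68A4A.13 (2.21), *math-45* (2.08) and T22B7.7 (2.05).

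Groups of genes were then described by their counts of calls, beside those of all 16110 genes, of which 10.2% were called higher and 9.4% lower, with a median difference of 0.01. In the *lin-22(ot267)* pair 4.2% of genes were called higher and 4.72% lower, in the *lin-22(ot269)* pair 10.5% and 8.44%, and in the interaction 3.76% and 2.12%. The larvae were whole, so fewer cells of a type and less RNA per cell cannot be told apart in any of them.

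**Figure D4:**
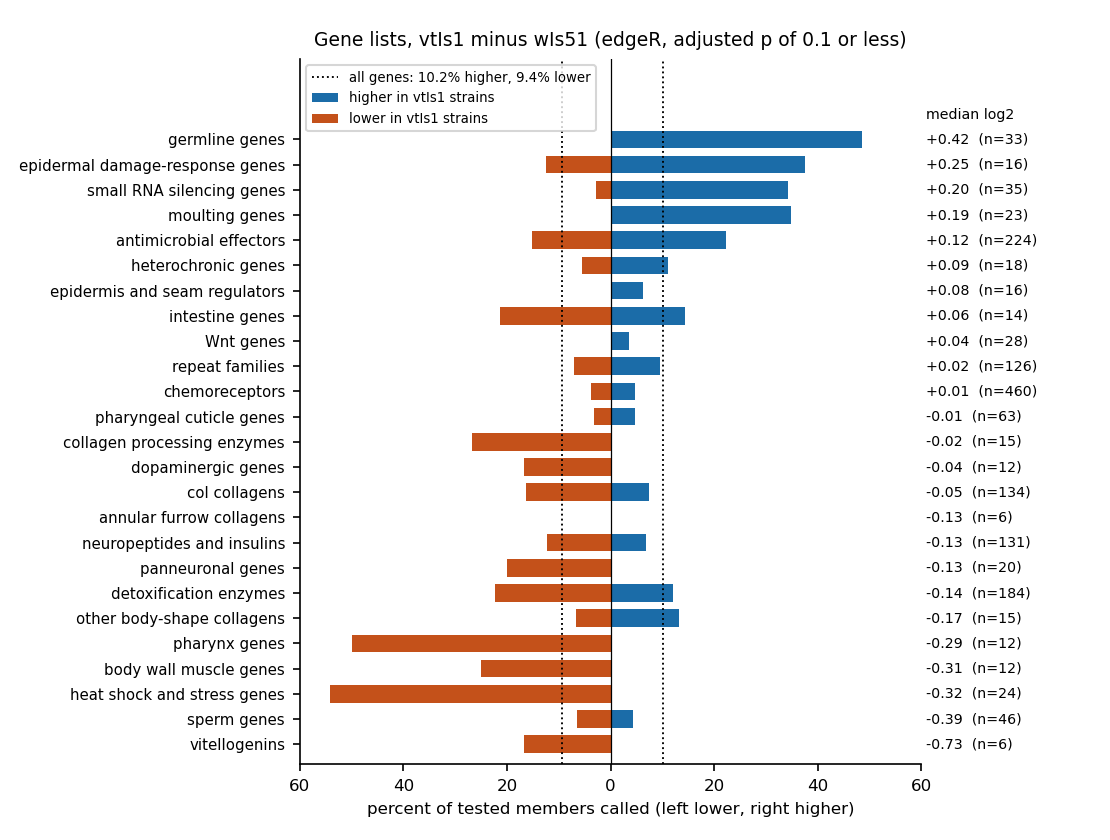
Percent of the tested members of 25 gene lists that were called higher (to the right) or lower (to the left) in the *vtIs1* strains at an adjusted p of 0.1, with dotted lines at the percentages over all genes (10.2% and 9.4%) and, at the right, the median log2 difference and the number of members tested. Germline genes lie at one end, with 16 of 33 called higher, and heat shock and stress genes towards the other, with 13 of 24 called lower.

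Of 24 heat shock and stress genes tested, 13 were called lower in the *vtIs1* strains and 0 higher, with a median of -0.32, which was -0.28 and -0.36 in the pairs. The difference was negative for 19 of the 24 and positive for 5. At an unadjusted p under 0.05 the same edgeR test had 16 lower and 2 higher, and DESeq2 called 15 lower and 1 higher. The members with the smallest p were inducible. *hsp-16.2*, which encodes a small heat shock protein, had 537, 1084 and 3097 normalised counts in the *wIs51* libraries and 149, 332 and 522 in the *vtIs1* libraries, without overlap. Its difference was -2.03 (standard error 0.328, edgeR adjusted p = 0.00147). *hsp-70* (C12C8.1), which encodes an inducible Hsp70, differed by -1.99 (edgeR adjusted p = 0.00126), *hsp-16.1* by -1.70 (edgeR adjusted p = 0.00147) and *hsp-16.11* by -1.73 (edgeR adjusted p = 0.00163), and these overlapped between the markers. *hsp-16.1*, *hsp-16.48*, *hsp-16.49* and *hsp-16.11* are neighbours on V and near copies in part, so they are not separate measurements. For each of *hsp-16.1*, *hsp-16.2*, *hsp-16.11* and *hsp-70*, JR667 replicate 1 was the highest library, at 11556 normalised counts of *hsp-16.1* against 2369 to 4996 in the other *wIs51* libraries. Without that library the differences were -1.38 for *hsp-16.1*, -1.65 for *hsp-16.2*, -1.40 for *hsp-16.11* and -1.75 for *hsp-70*, and 15 members were called lower. A further 5 *hsp* genes of the list, *hsp-4* (ER), *hsp-6* and *hsp-60* (mitochondria), *hsp-110* and *hsp-1*, differed by between -0.42 (*hsp-6*) and -0.20 (*hsp-110*). The first 3 of them were called. *hsf-1*, the transcription factor of the heat shock response, differed by 0.16 (edgeR adjusted p = 0.164).

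Of 33 germline genes, 16 were called higher and 0 lower, all 33 had a positive difference, and the median was 0.42. At an unadjusted p under 0.05 edgeR had 21 higher and 0 lower, and DESeq2 called 20 higher and 0 lower. The pairs were not alike. In the *lin-22(ot269)* pair 20 were called higher and the median was 0.63, whereas in the *lin-22(ot267)* pair 0 were called and the median was 0.18. The difference between the pairs was itself called for 4 of the 33. *lin-22(icb38)* was the lowest strain for the genes named here. *him-3*, which encodes a protein of the meiotic chromosome axis, had normalised counts of 954, 950 and 1577 for JR667 and of 530, 275 and 414 for *lin-22(icb38)*. The *lin-22(ot267)* libraries held 1235, 1495 and 2127 and the *lin-22(ot269)* libraries 883, 1258 and 1084. Its difference was 0.93 (standard error 0.219, edgeR adjusted p = 0.0147). *syp-1*, of the synaptonemal complex, differed by 0.65 (edgeR adjusted p = 0.0231), and *fog-1* and *fog-3*, which promote the sperm fate of germ cells, by 0.75 and 0.73 (edgeR adjusted p = 0.0117 and 0.0265). The pairs differed from each other for *fog-3* (0.13 and 1.35, edgeR adjusted p of the interaction 0.00394) and *syp-1* (edgeR adjusted p of the interaction 0.0583), and the difference did not pass for *him-3* and *fog-1* (0.205 and 0.349). Without the second factor 1 member was called, and with each library left out in turn the count ran from 8 (without *lin-22(ot269)* replicate 2) to 25 (without JR667 replicate 3).

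Genes of small RNA silencing, many of which act in the germline, had 12 of 35 called higher and 1 lower, with a median of 0.20 that was 0.20 and 0.19 in the pairs. *mut-15*, which encodes a component of mutator foci, had 1752, 2016 and 2295 normalised counts in the *wIs51* libraries and 2550, 2598 and 2736 in the *vtIs1* libraries, a difference of 0.37 (standard error 0.0663, edgeR adjusted p = 0.00329) without overlap. *set-32*, *nrde-4* and *eri-3*, all of which act in RNA interference, were higher by 0.48, 0.30 and 0.28 (edgeR adjusted p = 0.03, 0.0301 and 0.0286), and the 1 member called lower was the dsRNA importer gene *sid-2* (-0.26, edgeR adjusted p = 0.0382). The count higher was 4 without *lin-22(icb38)* replicate 2 and 15 without JR667 replicate 3.

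Of 23 moulting genes, 8 were called higher and 0 lower, with a median of 0.19 (10 higher and 0 lower at an unadjusted p under 0.05 in edgeR, 9 and 0 called by DESeq2). *nhr-25*, which encodes a nuclear receptor of the epidermis, had 797, 1218 and 1359 normalised counts in the *wIs51* libraries and 1410, 1666 and 1927 in the *vtIs1* libraries, a difference of 0.55 (standard error 0.085, edgeR adjusted p = 0.00115), with 0.63 and 0.47 in the pairs. *bed-3*, which encodes a zinc finger protein needed for moulting, rose by 0.50 (edgeR adjusted p = 0.0144). *mlt-10* and *mlt-8* rose by 0.78 and 0.66 (edgeR adjusted p = 0.018 and 0.0239), but *lin-22(ot269)* alone held the high values: its *mlt-8* counts were 67732 to 76674, against 25912 to 35933 in the other 3 strains, and the pairs of *mlt-8* differed (edgeR adjusted p of the interaction 0.00275). Moulting genes cycle within each larval stage, and the part of the stage within L3 in these values was not tested. The count higher ran from 5 (without *lin-22(icb38)* replicate 1) to 11 (without *lin-22(ot267)* replicate 2).

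**Figure D5:**
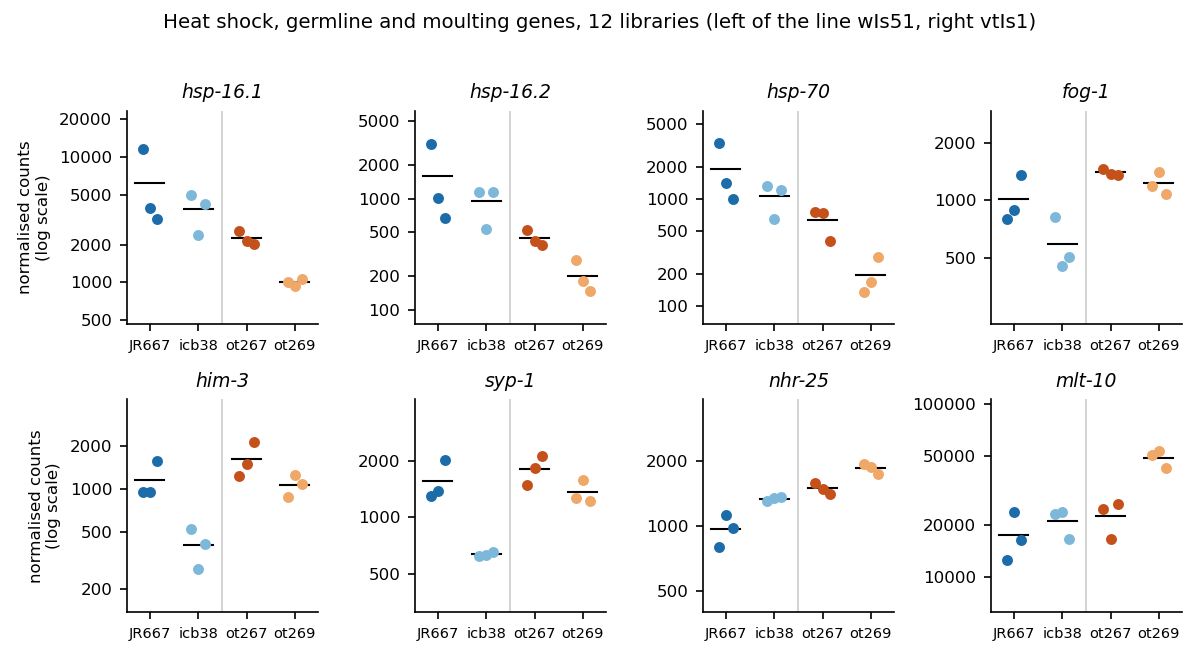
Normalised counts (log axis) of *hsp-16.1*, *hsp-16.2*, *hsp-70*, *fog-1*, *him-3*, *syp-1*, *nhr-25* and *mlt-10* in each of the 12 libraries, with 3 points per strain, a bar at the strain mean, and a line between *wIs51* strains (left) and *vtIs1* strains (right). JR667 replicate 1 is the highest point for the heat shock genes, *lin-22(icb38)* is the lowest strain for the germline genes, and *lin-22(ot269)* stands above the others for *mlt-10*.

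Genes of other tissues served as markers of what the whole larva held. Of 12 pharynx genes, 6 were called lower and 0 higher, with a median of -0.29 (7 lower and 0 higher at an unadjusted p under 0.05 in edgeR, 7 and 0 called by DESeq2). The pharyngeal myosin heavy chain genes *myo-1* and *myo-2* both differed by -0.58 (edgeR adjusted p = 0.0313 and 0.0439), *tnc-2*, a troponin C gene, by -0.44 (edgeR adjusted p = 0.0418) and *phat-4* by -0.37 (edgeR adjusted p = 0.0471). The count was 2 without *lin-22(ot269)* replicate 1 and 8 without JR667 replicate 3. Of 12 body wall muscle genes, 3 were called lower and 0 higher, all 12 had a negative difference, and the median was -0.31 (5 lower and 0 higher at an unadjusted p under 0.05 in edgeR, and the same counts by DESeq2). *lev-11*, the tropomyosin gene, and *mup-2*, a troponin T gene, differed by -0.35 and -0.42 (edgeR adjusted p = 0.0103 and 0.0179), both without overlap. *pat-10*, a troponin C gene, differed by -0.38 (edgeR adjusted p = 0.0253). No member of either list passed in the *lin-22(ot267)* pair, in which the medians were -0.15 for pharynx and -0.09 for muscle, against -0.50 and -0.42 in the *lin-22(ot269)* pair. Without JR667 replicate 1 the muscle count was 9.

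Of 20 panneuronal genes, 4 were called lower and 0 higher, among them *unc-119* itself. The others were *ida-1* of dense core vesicles (-0.42, edgeR adjusted p = 0.00644), the proprotein convertase gene *egl-3* (-0.28, edgeR adjusted p = 0.0422) and the synaptobrevin gene *snb-1* (-0.27, edgeR adjusted p = 0.0627). With library totals as the scaling the last 2 were not called. Of 12 dopaminergic genes, 2 were called lower and 0 higher, the GTP cyclohydrolase gene *cat-4* (-0.61, edgeR adjusted p = 0.0336) and the ETS factor gene *ast-1* (-0.40, edgeR adjusted p = 0.0377). The pairs went apart for this list, with 3 higher and 0 lower in the *lin-22(ot267)* pair (median 0.22) and 0 higher and 6 lower in the *lin-22(ot269)* pair (median -0.43), and 5 of 12 had an interaction called, all lower (2.12% of all genes). Of 14 intestine genes 2 were higher and 3 lower, with a median of 0.06. *cpr-5* and *cpr-1*, both of the cathepsin B family, went in opposite directions (-0.57 and 0.73, edgeR adjusted p = 0.0123 and 0.0229). The count lower was 1 without JR667 replicate 2, and with library totals 5 were higher and 2 lower.

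Collagens of the cuticle form a family to which *rol-6* belongs. Of 6 annular furrow collagens 0 were called in either direction, also by DESeq2 and at an unadjusted p under 0.05, with a median of -0.13. The pairs of these genes differed: 4 were lower in the *lin-22(ot267)* pair (median -0.54) and 0 in the *lin-22(ot269)* pair (median 0.24), and 5 of 6 had an interaction called higher (3.76% of all genes). Of 15 other body-shape collagens 2 were higher, *sqt-2* (0.74, edgeR adjusted p = 0.0233) and *sqt-1* (0.41, edgeR adjusted p = 0.0975), and 1 lower, *rol-1* (-2.04, edgeR adjusted p = 0.0421). *sqt-2* had 126020 to 145830 normalised counts in *lin-22(ot269)* and 39094 to 67242 in the other strains, and its pairs differed (0.21 and 1.28, edgeR adjusted p of the interaction 0.0322). *rol-1* was high in JR667 replicates 2 and 3 (862 and 1857 normalised counts) and between 23.4 and 163 in the other 10 libraries.

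Of 134 *col* genes tested, 10 were called higher and 22 lower, with a median of -0.05 that became 0.05 with library totals. After *col-115*, *col-58* differed by -1.48 (edgeR adjusted p = 9.02e-08), with 5014, 7733 and 13274 normalised counts in the *wIs51* libraries and 2059, 2869 and 3928 in the *vtIs1* libraries, and *col-182* was higher by 0.75 (edgeR adjusted p = 0.00554). The count of *col* genes higher was 4 without *lin-22(ot269)* replicate 2, the count lower was 11 without *lin-22(ot269)* replicate 1, and without the second factor they were 6 and 8. Of 15 enzymes and factors of collagen processing 4 were called lower and 0 higher (also 4 and 0 by DESeq2 and at an unadjusted p under 0.05), the protein disulphide isomerase genes *pdi-1*, *pdi-2* and *pdi-3* and the prolyl hydroxylase subunit gene *phy-2*, by between -0.34 (*phy-2*) and -0.27 (*pdi-3*). Without *lin-22(ot269)* replicate 2 the count lower was 1. With library totals 3 members were called higher and 0 lower, so this list has no direction that holds under both scalings.

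Of 16 genes of the epidermal response to damage, which is set off by wounding, infection or faults in the furrows of the cuticle, 6 were called higher and 2 lower, with a median of 0.25. *nlp-34* and *nlp-30*, which encode antimicrobial peptides, rose by 0.86 and 0.64 (edgeR adjusted p = 9e-04 and 0.00275), and *cnc-2*, of a related peptide family, by 0.96 (edgeR adjusted p = 0.0175). *nlp-28*, of the same cluster as *nlp-30*, differed by -0.88 (edgeR adjusted p = 0.0167). *nlp-29*, the usual reporter gene of this response, differed by 0.19 (edgeR adjusted p = 0.384). Of 224 antimicrobial effectors, mostly of the C-type lectin, lysozyme and related families, 50 were called higher and 34 lower. *clec-166* rose from 877 to 1162 normalised counts in the *wIs51* libraries to 1661 to 2284 in the *vtIs1* libraries (0.97, edgeR adjusted p = 2.62e-05), and *clec-265* fell from 4752 to 6789 to 2730 to 3599 (-0.81, edgeR adjusted p = 6.45e-05). The median was 0.12, at -0.04 in the *lin-22(ot267)* pair and 0.25 in the other, and 36 members had an interaction called higher and 8 lower.

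Of 184 detoxification enzymes, 22 were called higher and 41 lower, with a median of -0.14 that was -0.19 and -0.04 in the pairs. The UDP-glucuronosyltransferase genes *ugt-13*, *ugt-8* and *ugt-10* differed by -1.27, -0.94 and -0.99 (edgeR adjusted p = 2.95e-06, 6.16e-05 and 0.000288), and the cytochrome P450 gene *cyp-13B1* by -0.95 (edgeR adjusted p = 0.000194). All 4 were without overlap, with *ugt-13* at 6342, 7940 and 8376 normalised counts in the *wIs51* libraries and 2266, 3220 and 4339 in the *vtIs1* libraries. With library totals the list had 34 higher and 30 lower.

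Of 28 Wnt genes 1 was higher (*apr-1*, 0.25, edgeR adjusted p = 0.0708) and 0 lower, and of 16 regulators of epidermis and seam 1 was higher (*nhr-25*) and 0 lower. Of 18 heterochronic genes, which time larval stages, *lin-46* (0.32) and *daf-12* (0.25) were higher and *sea-2* (-0.40) lower (edgeR adjusted p = 0.0532, 0.0704 and 0.092). With library totals 8 Wnt genes and 8 heterochronic genes were called higher and 0 of either lower, beside 3172 higher and 830 lower among all genes. Without *lin-22(icb38)* replicate 2, 0 members of either list were called higher, and without JR667 replicate 1, 4 heterochronic genes were called lower. Of the neuropeptide and insulin genes tested 9 were higher (6.87%) and 16 lower (12.2%), and the count lower ran from 8 (without *lin-22(ot269)* replicate 1) to 19 (without JR667 replicate 3). Of 460 chemoreceptor genes 22 were higher and 17 lower, of 63 genes of the pharyngeal cuticle 3 and 2, of 126 repeat families 12 and 9, of 6 vitellogenins 0 and 1 (*vit-1*, -0.64, edgeR adjusted p = 0.088), and of 46 sperm genes 2 and 3. Without *lin-22(ot269)* replicate 1 the chemoreceptors had 9 higher and 9 lower, and without *lin-22(ot269)* replicate 2 the repeat families had 5 higher. Among the sperm genes *nspd-7* had 17 to 69 counts in the *wIs51* libraries and 0 to 4 in the *vtIs1* libraries, and *spe-12* had 0 to 4 against 10 to 26. MARINER2_CE, a mariner transposon family, differed by -1.13 (edgeR adjusted p = 8.71e-05), with 1445, 2124 and 2453 normalised counts against 724, 936 and 1071.

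The genes with the largest interactions stood apart in a single strain or differed in level among the strains of 1 marker. The neuropeptide gene *flp-33* had 0, 0 and 0.988 normalised counts in *lin-22(ot269)* and between 232 and 393 in the other 9 libraries (edgeR adjusted p of the interaction 1.61e-06). F37A4.5 had 0 counts in every *lin-22(icb38)* library, which allows up to 3 counts per library, and between 36 and 411 in the others. C07G1.7 had 296 to 361 normalised counts in *lin-22(icb38)* and 8.24 to 31.3 elsewhere, and C38D9.2 had 1741 to 3612 in *lin-22(icb38)*, 48 to 97.8 in JR667 and 567 to 774 in the *vtIs1* strains. *gtnt-17* and Y51H7C.1 were highest in JR667, with 82.2, 237 and 548 and with 40.6, 267 and 470 normalised counts, and at 59.3 or less in the other 9 libraries. None of the 6 but C07G1.7 was called between the markers in the fit with 2 factors.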

How the data were processed

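RNA of whole L3 larvae was made into stranded poly(A) libraries, 3 for each of 4 strains. The authors aligned the reads with Bowtie2, used bedtools for counting and DESeq for testing, per the study's methods and the submitters' processing notes, and versions and genome build are not given in the sources used here. The deposited values are raw counts per transcript or repeat family, with 23953 entries, of which 848 had no count. A table of the same counts scaled by the authors was not used. The marker of each strain was taken from the study's strain list.

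Counts were tested with the quasi-likelihood test of edgeR 4.0.16 in R 4.3.3, with median-of-ratios size factors, the count minimum of 10 in its expression filter and Benjamini-Hochberg adjustment over all 19696 entries, at a threshold of 0.1. The fit over 12 libraries had marker and upstream mutation as its 2 factors. A fit with a coefficient per strain gave the pairs and their interaction. DESeq2 1.42.0 was an alternative. Where a gene had several transcripts, the one with the highest mean stood for it in the 16110 genes. Of the gene entries 23133 matched RefSeq's gene table, used for names, chromosomes and gene order only. On simulated counts for this comparison, 175 of 200 entries given a log2 change of 1 among 19696 were called, with 21 false calls. The changed entries were drawn from those above a minimum mean count. No effect of the upstream mutation and no difference between the pairs was simulated, so the rates in the real data can differ.

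The members and lists were chosen with earlier results of these data known. Genes named were those of the transgenes and their background, the 15 largest rises and falls called in the fit and in both pairs without overlap and averaging 100 or more normalised counts in the marker group where they were higher, up to 4 members per list by p, the 3 largest interactions in each direction, and the members of the 3 longest runs. The neighbours of *unc-119*, *mec-17* and C55C3.3, TC1A, *hsf-1*, *nlp-29*, *hsp-1*, *hsp-4*, *hsp-6*, *hsp-60* and *hsp-110* were named after their values were seen. Replicates of a strain differed by more than sampling noise. Libraries with the same replicate number did not deviate together (correlations of -0.34 to 0.14 over 18 pairs). Those with other numbers had -0.31 to 0.32 over 36 pairs. Deviations from the mean of 3 libraries are tied to each other, so this cannot exclude that the numbers pair the libraries.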

Additional observations from a re-analysis of the deposited data

Results flagged for a closer look

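For some genes the *lin-22(ot269)* minus *lin-22(icb38)* difference differed from the *lin-22(ot267)* minus JR667 difference in edgeR's test of the interaction, and the values here are the former less the latter on the log2 scale. They were above 0 for ZK218.5 (3.51), *ppt-1* (2.65), *thn-2* (1.95), *argk-1* (1.7), F56A4.2 (1.53), *clec-209* (1.42), *fog-3* (1.23), *cpr-1* (1.14), *mlt-8* (1.11), *sqt-2* (1.08), *syp-1* (0.89), TC1A (0.84) and *phy-2* (0.69). The *pud* genes were also above 0, with 1.2 for *pud-3*, 1.14 for *pud-4*, 1.02 for *pud-1.1*, 0.98 for *pud-1.2*, 0.83 for *pud-2.1* and 0.8 for *pud-2.2*. Values below 0 were found for *phat-4* (-0.56), *cat-4* (-0.87), *rol-6* (-1.08), *dat-1* (-1.33), C07G1.7 (-4.51) and C38D9.2 (-5.17). For *flp-33*, F37A4.5, *gtnt-17* and Y51H7C.1 a strain was at or near 0 counts, and the edgeR adjusted p of the interaction was 1.61e-06, 0.00573, 0.00303 and 0.0331.

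Single libraries stood apart from the other 5 of their marker by Dixon's criterion at the 95% level. In groups drawn from a single normal distribution, chance meets it in about 1 in 20. Each marker group pools 2 strains, so that rate need not hold here. JR667 replicate 1 did so for *hsp-16.1* (11556 normalised counts), *hsp-16.11* (11424), *hsp-70* (3319), *hsp-16.2* (3097), *argk-1* (775), *pat-10* (160554) and C55C3.7 (1.85). JR667 replicate 2 did so for ZK218.5 (79.6), *thn-1* (25.9) and C55C3.4 (7.67), and JR667 replicate 3 for F37A4.5 (378). *lin-22(icb38)* replicate 1 stood apart for *mup-2* (86429) and *cpr-5* (74391), and its replicate 2 for F56A4.12 (181). Among the *vtIs1* libraries *lin-22(ot269)* replicate 1 stood apart for *srbc-15* (9.57), and *lin-22(ot267)* replicate 3 for *clec-265* (2730) and C07G1.7 (31.3). The cause was not tested.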

How the results depend on the processing

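Of 125 named entries called, 100 kept their call under all of the 23 alternatives that gave a value, 25 lost it under at least 1, and 0 reversed. At a threshold of 0.05 the calls were 2265 for the marker, 1065 for the *lin-22(ot267)* pair, 625 for the interaction and 365 shared by both pairs. The marker had 2426 calls without the second factor. With only the 6 libraries of a pair the *lin-22(ot267)* pair had 817 calls, and 379 were shared. DESeq2 called 1769 interactions. With a replicate block the marker had 2966 calls, and libraries with the same replicate number did not deviate together. With each library left out in turn, marker calls ran from 2367 (without *lin-22(ot269)* replicate 2) to 4078 (without JR667 replicate 1), *lin-22(ot267)* pair calls from 854 (without *lin-22(ot267)* replicate 3) to 1789, *lin-22(ot269)* pair calls from 2141 (without *lin-22(ot269)* replicate 2) to 4633 (without JR667 replicate 1), shared calls from 360 to 574 and interaction calls from 610 to 1314. Of the 12 named entries not called, *com-1* gained a call under 7 alternatives, *flp-33* under 6, F37A4.5 under 3 and C38D9.2 under 1, and *dat-1*, *unc-24*, TC1A and Y51H7C.1 kept their sign without a call under all that gave a value. The other 4 and C38D9.2 changed sign. *rol-6* was 0.01 with library totals, and with libraries left out it ran from -0.22 to 0.05 (without *lin-22(icb38)* replicate 2), with 0.0 without *lin-22(ot269)* replicate 3. *lin-22* ran from -0.21 to 0.06 (without *lin-22(icb38)* replicate 1), with 0.01 without *lin-22(ot269)* replicate 3. *rig-4* ran from -0.06 (without JR667 replicate 1) to 0.09, with -0.01 without *lin-22(ot267)* replicate 3. *gtnt-17* was 0.53 as the mean of the pairs and 0.42 in DESeq2. C38D9.2 was -1.03 without the second factor and ran from -0.37 to 0.99, with -0.37, -0.28 and -0.29 without JR667 replicates 1, 2 and 3. The causes were not tested.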
